A study of Mus musculus with 6 samples.

Results

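Heat shock proteins and the co-chaperones that work with them were followed in round spermatids of Eif5a SKO and wild-type (WT) mice, 3 libraries of each. Members were chosen by gene symbol alone: the Hspa, Hsph, Hsp90, Hspb, Hspd and Hspe names, the J-domain proteins (Dnaja, Dnajb, Dnajc), the Bag family, St13, Stip1, Hspbp1, the Hsf names, the cytosolic chaperonin (Cct and Tcp1) and prefoldin (Pfdn). The rule matched 103 symbols. 3 of them (Hspa5, Hsp90b1, Dnajb9) were left out by name and 5 were left out as pseudogenes, which left 95 members of the 22770 genes in the table. Each library was made by Smart-seq2, which copies polyadenylated RNA into cDNA along its length and amplifies it by PCR. The cells were round spermatids sorted by flow cytometry from testes at postnatal day 28, mostly at step 8 of spermatid development. The SKO libraries carry the loss of Eif5a, the translation factor with the hypusine residue, and the WT libraries are the controls. The labels do not spell out SKO, the promoter behind any Cre, or the number of animals behind a library. P-values therefore measure the spread between these libraries, which may be technical.

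Chaperones bind unfolded protein so that it folds rather than aggregates. HSP70 proteins do this in cycles of ATP hydrolysis: J-domain proteins bring the client and trigger hydrolysis, and exchange factors such as the HSP110 and BAG proteins release the nucleotide. HSP90 takes over late folding steps, small heat shock proteins hold unfolded protein without ATP, and prefoldin hands new actin and tubulin to the ring-shaped chaperonin CCT. Heat shock factors switch many of these genes on under stress. Male germ cells also make their own versions, such as Hspa2, Hspa1l, Hspb9, Dnajb3 and Dnajb13, which somatic cells make little of.

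The libraries held 52055193 to 60970931 counts. Eif5a itself stood at 5.35 to 6.88 CPM (counts scaled to a common library size with edgeR's TMM factors) in SKO libraries, against 616 to 701 CPM in WT libraries. The 1st principal component took 64.6% of the variance and divided the genotypes. On the 2nd, with 13.5%, SKO replicate 3 had a score of -71.4, while the other SKO libraries scored 40.3 and 37.6. All 12 round spermatid markers were present, summing to 8250 to 9970 CPM in SKO libraries and 6450 to 6880 CPM in WT libraries. Of these, 5 were called higher and 1 lower. The 10 Sertoli cell markers in the table summed to 70.9 to 226 CPM in SKO libraries and 2.73 to 12.3 CPM in WT libraries, and 9 of them were called higher. Rhox8 and Cst12, of that list, had 0 counts in some libraries. Leydig markers summed to 8.02 to 44.6 CPM in SKO libraries against 1.26 to 21.6 CPM in WT libraries, with 3 of 6 called higher. Peritubular myoid markers summed to 16 to 35.9 CPM against 5.15 to 12 CPM, and macrophage markers to 2.6 to 7.98 CPM against 4.26 to 5.35 CPM. Lower in SKO libraries were spermatogonial markers (14.9 to 18.4 CPM against 21.2 to 24.9 CPM) and the endothelial marker Kdr (0.742 to 1.35 CPM against 4.38 to 4.99 CPM). Elongating spermatid markers summed to 6950 to 7560 CPM in SKO libraries and 4580 to 5110 CPM in WT libraries. The part of these shifts in the results for the chaperones was not tested.

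Of the 95 members, 93 were detected well enough to test (Dnajc22 and Hspb3 were not). By edgeR's quasi-likelihood test at an adjusted p under 0.05, 20 of the 93 were higher in SKO libraries (21.5%) and 13 were lower (14%). Over all 19776 genes tested, 21.2% were called higher and 20.9% lower, 42% in all. With this scaling the share of members called higher is close to that of all genes, and the share called lower is smaller, but neither holds under each alternative. The median log2 fold change of SKO over WT was 0.08 over the members and 0.01 over all genes. With library totals alone as the scaling, which moves the median of all genes to -0.23, the members' split became 10 higher and 30 lower (10.8% and 32.3%, against 14.3% and 28.7% of all genes). With transcript length and GC content corrected for in each library it was 31 higher and 10 lower (33.3% and 10.8%, against 23.3% and 18.7% of all genes). A change of at least 2-fold was called in 6 members higher and 7 lower, that is in few of either, and 11.7% and 13% of all genes were called so. In 25 members every SKO library lay above every WT library, and in 22 every SKO library lay below, while 27.3% and 28.3% of all genes separated in these directions, 55.6% in all. The number of members called higher was 12 without WT replicate 1 and also without WT replicate 2, and 23 without SKO replicate 3. Over all genes the number higher was 3169, 3064 and 4329 in these fits, against 4185 with all libraries. The number of members called lower was 8 without WT replicate 2 and 16 without SKO replicate 3. Over all genes it was 3025 and 4766, against 4127 with all libraries.

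**Figure D1:**
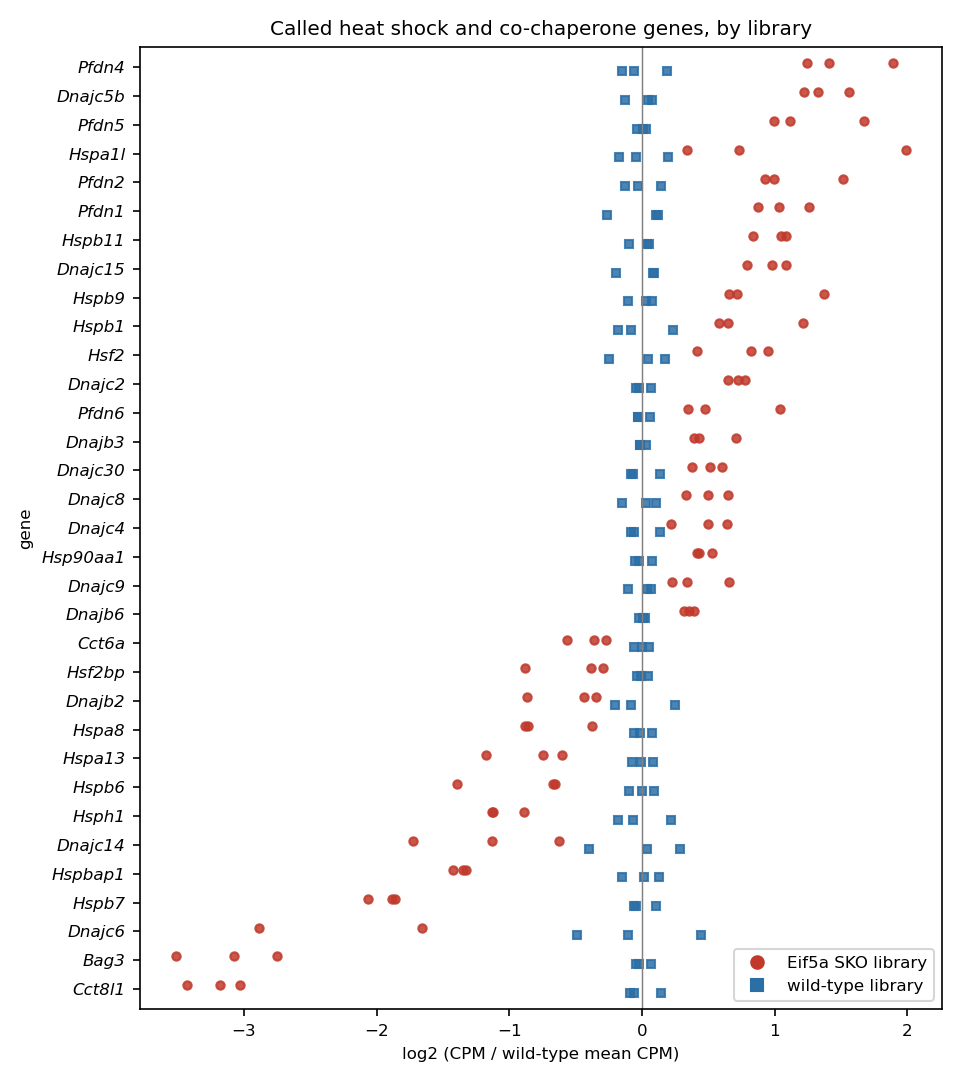
Level of each of the 33 called members in the 6 libraries, as the log2 difference from the mean of the WT libraries (horizontal axis). Circles are Eif5a SKO libraries and squares WT libraries; SKO replicate 2 of Dnajc6 had 0 counts and is not drawn, and the members run from the 20 higher to the 13 lower in SKO.

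In every called member the SKO and WT libraries did not overlap, as the plot of the called members by library shows. The counts by family are given without a test between families. Over all genes, 21.2% were called higher and 20.9% lower. All 5 prefoldin genes were called higher. The 10 CCT genes gave 0 higher and 2 lower, and their share lower (20%) is close to that of all genes. Of the 42 J-domain genes tested, 9 were higher and 3 lower (21.4% and 7.14%, against 21.2% and 20.9% of all genes). The 9 HSP70 co-chaperones gave 0 higher and 1 lower (11.1%). The 5 small heat shock proteins tested gave 3 higher and 2 lower (60% and 40%). Shares in such small families rest on few genes.

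**Figure D2:**
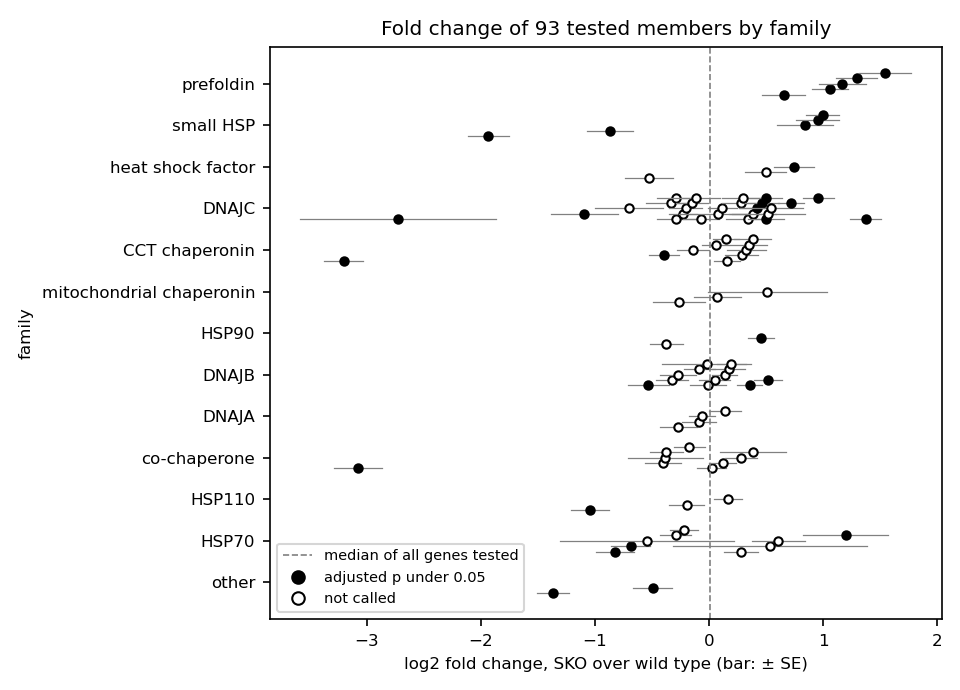
Log2 fold change of SKO over WT for each tested member, grouped by family. Filled points are members called at an adjusted p under 0.05, open points those not called, bars ± SE, and the dashed line the median of all genes tested; all 5 prefoldin points are filled and lie to the positive side, while the CCT and co-chaperone points lie between -0.41 and 0.39 apart from Cct8l1 (-3.20) and Bag3 (-3.08).

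The heat shock factors come first in the pathway. Hsf2, a factor found at high levels in the testis, was at 146, 159.7 and 110.3 CPM in the SKO libraries, against 85.1, 69.6 and 93.3 CPM in the WT libraries. Each SKO library lay above each WT library, and Hsf2 rose by 0.75 ± 0.17 (SE) on the log2 scale, SKO over WT (edgeR adjusted p = 0.00727). Hsf5, a germ cell member of the family, had 327, 336 and 219 CPM in SKO libraries and 224, 179 and 222 CPM in WT libraries. SKO replicate 3 lay among the WT libraries, and the difference was not called (log2 fold change, hereafter log2, 0.50 ± 0.18, edgeR adjusted p = 0.0509). DESeq2 called Hsf5 higher (adjusted p = 0.0327), as did edgeR without SKO replicate 3 (adjusted p = 0.000964). Hsf1, the main factor of the heat response, had 41.9, 32.4 and 22.8 CPM in SKO libraries and 50.7, 46.6 and 42.5 CPM in WT libraries. All 3 SKO values were below the WT values, with a log2 fold change of -0.53 ± 0.21 that missed the threshold (edgeR adjusted p = 0.0711).

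Genes that HSF1 is known to induce were called in both directions. Of 24 such genes tested, 3 were higher in SKO (Hsp90aa1, Hspb1 and the polyubiquitin gene Ubb), 5 were lower (among them Bag3, Hsph1, Hspa8 and Dedd2) and 16 were not called, with a median log2 fold change of -0.07. That is 12.5% higher and 20.8% lower, against 21.2% and 20.9% of all genes, so the share lower is that of all genes. Bag3, a co-chaperone of HSP70 that responds strongly to stress, had the lowest fold change on the list. It had 4.52, 3.34 and 5.66 CPM in SKO libraries, against 37.4, 39.8 and 36.9 CPM in WT libraries. The groups lie far apart, and Bag3 fell by 3.08 ± 0.21 on the log2 scale (edgeR adjusted p = 1.6e-05). Hsph1, the HSP110 protein that swaps nucleotide on HSP70, had 12.5, 14.7 and 12.5 CPM in SKO libraries and 26, 31.7 and 24 CPM in WT libraries. It fell by 1.04 ± 0.17 (edgeR adjusted p = 0.00099), again with no overlap. Hspa8, the HSP70 that most cells make at all times, had 28.2, 19.9 and 20.2 CPM in SKO libraries and 36.3, 38.6 and 35.2 CPM in WT libraries, and fell by 0.69 ± 0.17 (edgeR adjusted p = 0.0103).

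Ubb had 6213, 6782 and 5980 CPM in SKO libraries and 4792, 4349 and 4988 CPM in WT libraries. Its log2 fold change was 0.43 ± 0.12 (edgeR adjusted p = 0.0178), while Dedd2 fell by 1.17 ± 0.26 (edgeR adjusted p = 0.00552). Hspa1a, the HSP70 that is low in resting cells and strongly induced by heat, was barely detected, with 16, 4 and 17 counts in SKO libraries and 28, 8 and 29 counts in WT libraries. Its groups overlapped (edgeR adjusted p = 0.6), and since Hspa1a and Hspa1b are nearly identical its count is uncertain. Dnajb1, the J protein induced along with it, had 1033, 965 and 770.4 CPM in SKO libraries and 890.2, 888 and 897 CPM in WT libraries, also overlapping (log2 0.05 ± 0.14, edgeR adjusted p = 0.795). Hspd1 and Hspe1, the mitochondrial chaperonin and its lid, which share a promoter region, had log2 fold changes of -0.26 ± 0.23 and 0.07 ± 0.21 and were not called.

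Genes known to respond to cell handling, such as Fos, summed to 49 to 68.4 CPM in SKO libraries and 29 to 41.3 CPM in WT libraries, with 6 of 9 higher and 1 lower. Their part in the result was not tested.

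**Figure D3:**
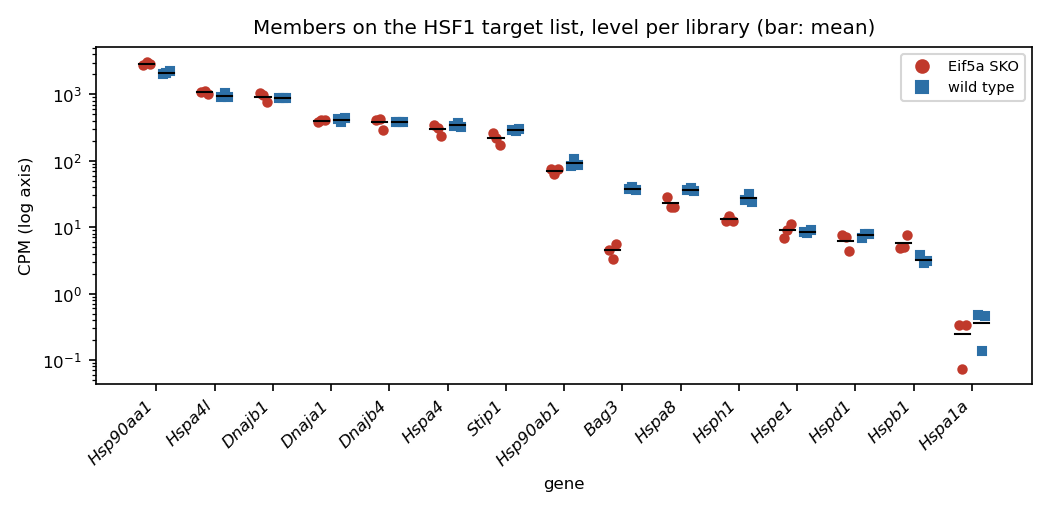
CPM (log axis) in each library for members on the HSF1 target list, with Eif5a SKO libraries as circles left of WT libraries as squares and bars for group means. Bag3, Hsph1 and Hspa8 lie lower in every SKO library, Hsp90aa1 and Hspb1 lie higher in every SKO library, and Dnajb1 overlaps.

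HSF1 and HSF2 bind arrays of the unit GAA and its reverse complement TTC. RefSeq promoter windows (GRCm38.p6, 250 bases before to 50 after each start site) were at hand for 77 of the 95 members, and were searched without mismatch for GAANNTTC or TTCNNGAA, which read the same on both strands. At least 1 such pair stood in the windows of 20 of the 77 members (26%), against 17% of all 27025 genes with windows. It was found in 8 of 12 members on the HSF1 target list, in 5 of the 11 called lower (Bag3, Cct6a, Cct8l1, Hspb6 and Hsph1) and in 2 of the 15 called higher (Dnajb6 and Hspb1). The longer form, in which a further unit follows the pair at the same spacing so that 2 pairs overlap, was in 4 members (Dnajb6, Hspd1, Hspe1 and Hsph1) and in 0.662% of all genes. A match is a run of letters and not a shown binding site, and several members (Hsp90aa1, Hspa8 and Hsf1 among them) had no window. The stretches given here are shown because they let a called member in each direction be set beside an uncalled stress gene with the longest array. Capitals mark the matched pairs. Hsph1 (lower; chr5:149636351-149636380, minus strand), Hspb6 (lower; chr7:30553161-30553210, plus strand), Dnajb6 (higher; chr5:29735843-29735872, plus strand), Hspb1 (higher; chr5:135887782-135887841, plus strand) and Hspd1 (not called; chr1:55088055-55088084, minus strand) read as follows.
Hsph1: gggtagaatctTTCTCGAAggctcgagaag
Hspb6: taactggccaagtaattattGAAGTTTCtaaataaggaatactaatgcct
Dnajb6: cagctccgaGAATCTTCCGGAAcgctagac
Hspb1: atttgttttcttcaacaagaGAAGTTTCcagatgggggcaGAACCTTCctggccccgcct
Hspd1: gcggggccTTCCGGAAGGTTCTAGAAcgga
The longer array of Hsph1 lies after its start site and is not in the stretch shown. For Hspb6 and Hspd1 the stretch comes from a start site whose window holds a match. Each of these genes has another RefSeq start site whose window holds no such pair. The array of Hspd1 lies within the annotated span of that gene and before the start of the divergent gene Hspe1. It holds 3 overlapping pairs, and neither gene was called. Matches thus stood before members that rose, members that fell and members that were not called.

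Among the HSP70 proteins, 1 was higher, 2 were lower and 6 were not called. Their shares were 11.1% higher and 22.2% lower, against 21.2% and 20.9% of all genes. Hspa13, an HSP70 of the endoplasmic reticulum membrane fraction, had 49.5, 54.4 and 36.7 CPM in SKO libraries and 82.5, 78.5 and 87.6 CPM in WT libraries. It fell by 0.82 ± 0.17 (edgeR adjusted p = 0.00354), with SKO replicate 3 the lowest. Hspa1l, the HSP70 of spermatids, had 8.32, 10.9 and 26 CPM in SKO libraries and 7.53, 6.38 and 5.82 CPM in WT libraries. Hspa1l rose (log2 1.20 ± 0.37, edgeR adjusted p = 0.027), but most of the difference lies in SKO replicate 3, and without that library the log2 fold change was 0.52 and was not called (edgeR adjusted p = 0.0507). Exons of other genes cover 71.9% of its exons, and whether counting used strand is not given in the sources used here.

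Hspa2, which male germ cells need to complete meiosis, had 491, 490.7 and 621 CPM in SKO libraries and 645, 710.4 and 609 CPM in WT libraries. SKO replicate 3 lay within the WT range and the difference was not called (log2 -0.29 ± 0.14, edgeR adjusted p = 0.115). Without SKO replicate 3, Hspa2 was called lower (log2 -0.45, edgeR adjusted p = 0.00306). Hspa9, the mitochondrial HSP70, had log2 -0.22 ± 0.13 (edgeR adjusted p = 0.184), and Hspa14, which works at the ribosome, had log2 0.61 ± 0.23 (edgeR adjusted p = 0.0611). The HSP110 gene Hspa4l, the highest of its family per kb, had 1096, 1132 and 1001 CPM in SKO libraries and 926.5, 1042 and 911.8 CPM in WT libraries. It overlapped between genotypes, as did Hspa4 (log2 -0.20 ± 0.16), so of the HSP110 genes Hsph1 alone was called.

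Apart from Bag3, the co-chaperones of HSP70 were not called by edgeR. Bag5, the most abundant BAG gene here per kb of transcript, had 884, 753 and 802 CPM in SKO libraries and 792, 879 and 729.5 CPM in WT libraries, which overlap almost fully. Stip1, the adaptor that joins HSP70 to HSP90, had 261, 224 and 171 CPM in SKO libraries and 286, 283 and 300.3 CPM in WT libraries. Each SKO library was below each WT library, but the log2 fold change of -0.41 ± 0.16 missed the threshold (edgeR adjusted p = 0.0662). Stip1 was called lower by DESeq2 (adjusted p = 0.0416), by limma-voom (adjusted p = 0.0485), and by edgeR without SKO replicate 1 (adjusted p = 0.0187) or SKO replicate 3 (adjusted p = 0.0263). Bag4 was called lower by DESeq2 (adjusted p = 0.0331) and by edgeR without SKO replicate 1 (adjusted p = 0.0448). Bag4, Bag1, Bag2, Bag6, St13 and Hspbp1 had log2 fold changes of -0.38, 0.12, -0.39, 0.39, 0.28 and -0.17.

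Hsp90aa1 and Hsp90ab1, the inducible and the constitutive cytosolic HSP90, did not move alike. Hsp90aa1 had 2817, 3047 and 2846 CPM in SKO libraries and 2039, 2081 and 2228 CPM in WT libraries. Each SKO library was above each WT library, and Hsp90aa1 rose (log2 0.46 ± 0.11, edgeR adjusted p = 0.00985). Hsp90ab1 had 74.4, 63.1 and 76.5 CPM in SKO libraries and 83.8, 106.4 and 87.1 CPM in WT libraries, below WT in every library but not called (log2 -0.37 ± 0.15, edgeR adjusted p = 0.0678). Per kb of transcript, Hsp90aa1 was 29.1, 37.1 and 28.6 times as high as Hsp90ab1 in SKO libraries and 18.7, 15 and 19.6 times as high in WT libraries. The difference between the 2 fold changes was not tested. Hsp90aa1 was not called without WT replicate 1 (edgeR adjusted p = 0.0661) or with library totals, where its log2 fold change was 0.22 (edgeR adjusted p = 0.12). Hsp90ab1 was called lower by DESeq2 (adjusted p = 0.0442), and by edgeR without SKO replicate 3 (adjusted p = 0.0237) and with library totals (adjusted p = 0.0123).

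J-domain proteins, which stimulate HSP70, made up the largest family. Dnajc5b, a testis relative of the cysteine string protein that serves vesicle fusion, had 726, 853 and 675 CPM in SKO libraries and 299, 265 and 305 CPM in WT libraries. The groups lay well apart, and Dnajc5b rose (log2 1.38 ± 0.14, edgeR adjusted p = 8.4e-05). Dnajc15, a protein of the mitochondrial inner membrane, had 1031, 1172 and 1266 CPM in SKO libraries and 635, 521 and 632 CPM in WT libraries (log2 0.96 ± 0.14, edgeR adjusted p = 0.000573). Dnajc2, which sits at the ribosome's exit tunnel with Hspa14, had 556.5, 576 and 528 CPM in SKO libraries and 332, 326 and 352 CPM in WT libraries (log2 0.72 ± 0.11, edgeR adjusted p = 0.00101). All 3 genes rose in every SKO library, and each stayed called under all 17 alternatives.

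Dnajb3, an intronless J protein of spermatids, had 1168, 1136 and 1411 CPM in SKO libraries and 857, 854 and 885 CPM in WT libraries. It rose by less (log2 0.52 ± 0.13, edgeR adjusted p = 0.00909). Per kb it stood at 823 CPM in WT libraries on average, higher than any other member, against 1180 CPM in SKO libraries, where Hspb9 was the highest. Smaller increases were called in Dnajb6 (log2 0.36 ± 0.11), Dnajc8 (0.50 ± 0.15), Dnajc30 (0.50 ± 0.16), Dnajc4 (0.46 ± 0.15) and Dnajc9 (0.42 ± 0.15). These 5 calls were the less steady ones, since each was lost under 7 to 11 of the 17 alternatives, and Dnajc4 and Dnajc9 were not called without SKO replicate 3. Exons of Bud23 cover 26.2% of the exons of Dnajc30, and Bud23 was itself called higher (log2 0.43, edgeR adjusted p = 0.0291).

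In the other direction, Dnajc14, an endoplasmic reticulum J protein, had 5.89, 2.75 and 4.14 CPM in SKO libraries and 9.3, 11.1 and 6.86 CPM in WT libraries. It fell by 1.09 ± 0.29 (edgeR adjusted p = 0.0144), but was not called without WT replicate 2. Exons of other genes cover 19.9% of the exons of Dnajc14. Of these genes Sarnp was called higher (log2 0.89), and Ormdl2 (log2 0.34) and Tmem198b (log2 -1.71) were not called. Dnajc6, the auxilin that helps uncoat clathrin vesicles, was near the limit of detection, with 0.186, 0 and 0.436 CPM in SKO libraries and 1.28, 1.88 and 0.978 CPM in WT libraries. It was called lower (edgeR adjusted p = 0.0281), on few counts, and the call was lost without SKO replicate 1 (adjusted p = 0.0755), WT replicate 1 (0.0575) or WT replicate 2 (0.114). Dnajb2, which brings ubiquitinated clients to HSP70, had 81.4, 60.3 and 86.8 CPM in SKO libraries and 104, 130.7 and 95.9 CPM in WT libraries. It fell by 0.53 ± 0.18 (edgeR adjusted p = 0.0369), but its log2 fold change was -0.004 once transcript length and GC content were corrected for. It was also not called without SKO replicate 1 or 2, or without WT replicate 1 or 2.

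The other J proteins of the male germ line were mostly not called. Dnajc5g, another relative of the cysteine string protein, had 644, 731 and 295 CPM in SKO libraries and 383, 345.5 and 419 CPM in WT libraries. SKO replicates 1 and 2 were above all WT libraries and SKO replicate 3 was below them. With all libraries the log2 fold change was 0.54 ± 0.28 (edgeR adjusted p = 0.145), and without SKO replicate 3 it was 0.81 (edgeR adjusted p = 0.000149). Dnajb13, a protein of the radial spokes of the sperm tail, had 910.5, 1025 and 848 CPM in SKO libraries and 837, 744 and 849 CPM in WT libraries, which overlap. Dnajb7 and Dnajb8 had log2 fold changes of 0.17 ± 0.15 and -0.27 ± 0.16. The 4 Dnaja genes, cytosolic and mitochondrial partners of HSP70, lay between -0.27 and 0.14 and none was called (edgeR adjusted p of 0.203 or more).

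The small heat shock proteins moved in both directions. Hspb9, the small heat shock protein of the testis, had 812, 843 and 1332 CPM in SKO libraries and 524, 478 and 542 CPM in WT libraries. Hspb9 rose (log2 0.95 ± 0.19, edgeR adjusted p = 0.00336), and its log2 fold change was 0.65 without SKO replicate 3, the highest library. Hspb11, known as the intraflagellar transport protein IFT25, had 36.7, 42.4 and 43.6 CPM in SKO libraries and 21.1, 19.2 and 21.3 CPM in WT libraries (log2 0.99 ± 0.15, edgeR adjusted p = 0.000624). Both lay clear of WT in every SKO library.

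Hspb1, the stress-induced small heat shock protein that binds actin, had 4.83, 5.07 and 7.5 CPM in SKO libraries and 3.8, 2.85 and 3.06 CPM in WT libraries. Hspb1 rose (log2 0.84 ± 0.25, edgeR adjusted p = 0.0205), and was not called without SKO replicate 3, the highest library (0.58, edgeR adjusted p = 0.052). Hspb7, better known from heart and skeletal muscle, had 2.95, 2.6 and 2.99 CPM in SKO libraries and 10.4, 11.7 and 10.6 CPM in WT libraries. It fell by 1.94 ± 0.18 (edgeR adjusted p = 7.1e-05), a steady difference between groups that each vary little. Hspb6, a muscle small heat shock protein too, had 22, 22.4 and 13.4 CPM in SKO libraries and 35.2, 32.9 and 37.5 CPM in WT libraries (log2 -0.87 ± 0.21, edgeR adjusted p = 0.00769). Exons of other genes, Lin37 among them, cover 8.8% of the exons of Hspb6, and Lin37 was itself called lower (log2 -0.73).

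Prefoldin and the chaperonin CCT act one after the other on new actin and tubulin. All 5 prefoldin genes were called higher and 0 of the 10 CCT genes were, where 21.2% of all genes were. The difference between the families was not tested. Prefoldin transcripts, at 871 to 1735 bases, were shorter than CCT transcripts, at 1853 to 3884 bases. Of all genes, 34.2% were called higher at 697 to 1155 bases and 12.2% at 3003 to 3874 bases. After the correction for length and GC content all 5 prefoldin genes stayed called, Tcp1 was called higher and Cct6a lost its call. Pfdn5, which also binds the MYC protein, had 350.7, 381.5 and 562 CPM in SKO libraries and 177, 171 and 179.7 CPM in WT libraries. Pfdn5 rose (log2 1.29 ± 0.18, edgeR adjusted p = 0.000495). Pfdn1 had 359, 402 and 470.1 CPM in SKO libraries and 214, 164 and 212 CPM in WT libraries (log2 1.06 ± 0.16, edgeR adjusted p = 0.000648). Per kb of transcript these stood at 406 and 370.0 CPM in SKO libraries, above the other members of the family, and in both every SKO library stood above every WT library.

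Pfdn4, at 8.37 CPM per kb in SKO libraries, had 7.08, 7.94 and 11.1 CPM in SKO libraries and 2.86, 2.69 and 3.41 CPM in WT libraries (log2 1.54 ± 0.23, edgeR adjusted p = 0.000728). Pfdn2 had 10.9, 10.4 and 15.6 CPM in SKO libraries and 6.03, 4.99 and 5.35 CPM in WT libraries (log2 1.17 ± 0.21, edgeR adjusted p = 0.00168). Pfdn6 had 64.4, 70.4 and 104.2 CPM in SKO libraries and 49.7, 49.5 and 52.7 CPM in WT libraries (log2 0.65 ± 0.19, edgeR adjusted p = 0.0187). SKO replicate 3 was the highest library for all 5. Without it the log2 fold changes were 1.02 for Pfdn5, 0.92 for Pfdn1, 1.30 for Pfdn4, 0.93 for Pfdn2 and 0.38 for Pfdn6, each still called. Pfdn6 lost its call without WT replicate 1 or WT replicate 2.

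The complex has a further subunit, Vbp1, whose name the rule does not match and which lies on the X chromosome. It was singled out after its values were seen: 35.8, 46.2 and 27.3 CPM in SKO libraries and 14, 13.8 and 17.9 CPM in WT libraries (log2 1.26 ± 0.21, edgeR adjusted p = 0.00137). Here SKO replicate 3 was the lowest SKO library rather than the highest. Summed over the 5 members, prefoldin stood at 792, 872 and 1160 CPM in SKO libraries and 450, 393 and 453 CPM in WT libraries. Part of the exons of Pfdn2 (27.6%) and Pfdn4 (28.7%) is shared with other genes. The partner of Pfdn4, Cyp24a1, was itself higher (log2 1.31), while that of Pfdn2, Klhdc9, was not called (log2 -0.26).

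The promoters of Pfdn4 and Pfdn5 are shown because these genes had the largest fold changes in a family called in 1 direction throughout. They are the 60 bases before the start site, at chr2:170496368-170496427 (plus strand) and chr15:102326056-102326115 (plus strand) of GRCm38.p6, from RefSeq. Capitals mark GGGCGG, the GC box bound by SP factors.
Pfdn4: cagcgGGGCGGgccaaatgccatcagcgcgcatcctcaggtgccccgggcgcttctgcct
Pfdn5: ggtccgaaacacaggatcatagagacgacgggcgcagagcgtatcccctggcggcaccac
In the full windows of 4 prefoldin genes (Pfdn1 had none), 3 held the GC box on either strand, as did 57 of 77 members and 38.2% of all genes. The GC box of Pfdn5 lies after its start site and is not in the stretch shown, and Pfdn6 held no match. None of the 4 held the GAA pair, CCAAT (in 41.1% of all genes) or TGACGTCA, the site of the germ cell activator CREM (in 2.03% of all genes).

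**Figure D4:**
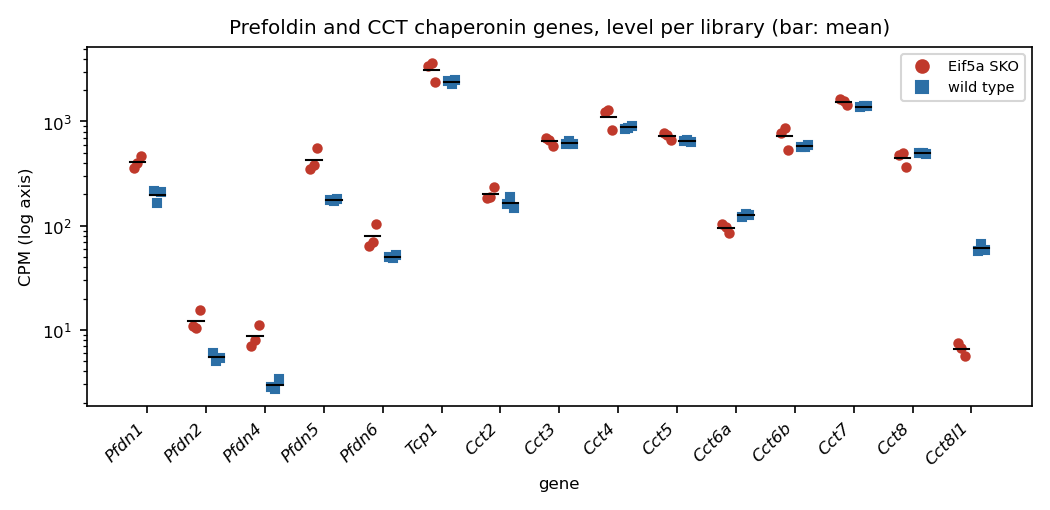
CPM (log axis) in each library for the prefoldin genes and for the CCT genes, Eif5a SKO libraries as circles left of WT libraries as squares, with bars for group means. For the 5 prefoldin genes every SKO point lies above every WT point; among the CCT genes the groups overlap apart from Cct8l1 and Cct6a, which are lower in SKO, and Cct7, which is higher but not called.

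Of the CCT genes, 8 of 10 were not called. Tcp1, the alpha subunit, had 3417, 3614 and 2397 CPM in SKO libraries and 2441, 2280 and 2521 CPM in WT libraries. SKO replicate 3 fell among the WT libraries and the difference missed the threshold (log2 0.38 ± 0.16, edgeR adjusted p = 0.0847). Cct6b, the testis form of the zeta subunit, had 773, 869 and 535.5 CPM in SKO libraries and 571, 572 and 592 CPM in WT libraries (log2 0.33 ± 0.17, edgeR adjusted p = 0.153). SKO replicates 1 and 2 were above all WT libraries and SKO replicate 3 was below them. Without SKO replicate 3 both were called higher, Tcp1 at log2 0.51 (edgeR adjusted p = 0.00024) and Cct6b at log2 0.47 (edgeR adjusted p = 0.00106). Tcp1 was also called higher after the correction for length and GC content (0.33, edgeR adjusted p = 0.0441). Cct6a, the ubiquitous counterpart of Cct6b, had 104.3, 97.7 and 84.8 CPM in SKO libraries and 121, 130.7 and 126 CPM in WT libraries. Cct6a fell by 0.40 ± 0.13 (edgeR adjusted p = 0.0345), a call that was lost without SKO replicate 2 and without each of the WT replicates. Exons of other genes, Psph among them, cover 15.3% of its exons, and Psph was itself called lower (log2 -0.73). Cct2, Cct3, Cct4, Cct5, Cct7 and Cct8, the other subunits of the ring, had log2 fold changes of 0.29, 0.06, 0.35, 0.16, 0.15 and -0.14.

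Cct8l1, an intronless relative of the theta subunit, was the member with the largest change. It had 7.44, 6.7 and 5.62 CPM in SKO libraries and 57, 67 and 58.1 CPM in WT libraries, and fell by 3.20 ± 0.17 (edgeR adjusted p = 8e-06). The subunit gene Cct8 itself had 482, 497 and 366 CPM in SKO libraries and 498, 497 and 486 CPM in WT libraries and was not called (edgeR adjusted p = 0.455). A stretch before the start of Cct8l1 (GRCm38.p6 from RefSeq, chr5:25515911-25515960, plus strand) is shown because it holds the GAA pair, in capitals.
Cct8l1: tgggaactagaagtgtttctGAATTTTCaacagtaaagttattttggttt

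The last 2 members are proteins named for the factor they bind. Hspbap1, a JmjC protein that binds HSPB1, had 24.5, 23.3 and 24.8 CPM in SKO libraries and 62.9, 68 and 56.2 CPM in WT libraries. It fell by 1.37 ± 0.14 (edgeR adjusted p = 0.000105). Hsf2bp, which binds BRCA2 in meiotic recombination, had 63.9, 60 and 42.6 CPM in SKO libraries and 76.3, 77.9 and 80.5 CPM in WT libraries. It fell by 0.50 ± 0.17 (edgeR adjusted p = 0.0379), but lost its call without any 1 of the WT replicates. In both genes the groups did not overlap.

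A list of 19 members expressed in male germ cells had a median log2 fold change of 0.20. Not all of them are germ cell genes alone, since Hsp90aa1, the inducible HSP90, is also on the HSF1 list. Of the 19, 6 were higher (Dnajc5b, Hspa1l, Hspb9, Hsf2, Dnajb3 and Hsp90aa1), 2 were lower (Dnajb2 and Hsf2bp) and 11 were not called. That is 31.6% higher and 10.5% lower, against 21.2% and 20.9% of all genes. The 95 members together made up 28200, 29000 and 26000 CPM in SKO libraries and 22700, 22500 and 23000 CPM in WT libraries. Tcp1 and Hsp90aa1 contributed most to this sum. In libraries made from many cells, more cells of a type and more RNA per cell cannot be told apart. Of 10 markers of pachytene spermatocytes, a stage that also expresses many of these genes, 4 were higher and 1 lower. They summed to 12800 to 14100 CPM in SKO libraries against 8950 to 9170 CPM in WT libraries, and most of that is Ldhc. Without Ldhc the other 9 summed to 1838, 1763 and 1363 CPM in SKO libraries and 1779, 1815 and 1755 CPM in WT libraries. The part of these markers in the difference was not tested.

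Fold change also went with transcript length. Among the 12 tested members with transcripts of 697 to 1155 bases, 9 were higher and 0 lower, with a median log2 fold change of 0.75. Pfdn1, Pfdn4, Pfdn5 and Pfdn6 are among those 9. The 2377 genes of that length had a median of 0.37, and 34.2% of them were called higher and 13.8% lower. The 14 members with 3003 to 3874 bases had a median of -0.02, against -0.23 for all genes of that length. In the bins between, the members' median was 0.29 against 0.11 (1156 to 1715 bases), 0.16 against 0.02 (1716 to 2299 bases) and -0.23 against -0.15 (2300 to 3002 bases). For longer transcripts it was -0.08 against -0.18 (3876 to 5204 bases) and 0.04 against -0.07 (5205 bases or more). The medians of all genes thus fell no further beyond 3874 bases. Over 92 members Pearson's r between log2 length and log2 fold change was -0.27 and Spearman's rho -0.30, and over 19203 genes they were -0.17 and -0.20. Genes are not independent replicates, and these describe the libraries. With length and GC content corrected within each library, the prefoldin fold changes were 1.20 for Pfdn5, 1.00 for Pfdn1, 1.03 for Pfdn4, 1.20 for Pfdn2 and 0.49 for Pfdn6, each still called.

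**Figure D5:**
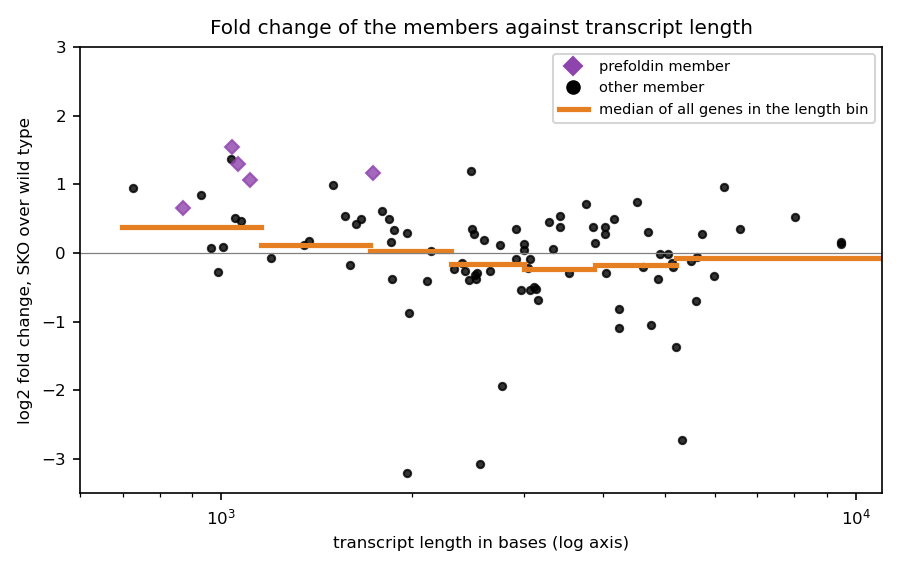
Log2 fold change of SKO over WT (vertical axis) against transcript length in bases (horizontal axis, log scale) for the tested members with a length. Diamonds are prefoldin genes, dots other members, and bars the median of all genes in each length bin, which lies at 0.37 for 697 to 1155 bases and at -0.23 for 3003 to 3874 bases.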

How the data were processed

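Counts per gene were deposited by the authors as raw whole numbers, 1 column per library. The submitters' processing notes name Trim Galore 0.6.4, HISAT2 2.0.5, featureCounts 1.5.0-p3 and the build GRCm38. The sources used here give no strand or multimapping setting. Smart-seq2 reads have no molecular identifiers, so PCR copies count as separate reads. Columns headed cKO were taken as the SKO samples.

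Genes passing filterByExpr at its defaults were tested over all 6 libraries with edgeR 4.0.16 in R 4.3.3 (TMM scaling, quasi-likelihood test, two-sided, Benjamini-Hochberg adjustment over 19776 genes, called at 0.05). CPM values use the TMM factors, errors of fold changes are standard errors, and levels per kb use GENCODE transcript lengths. Between replicates the counts differed by 14.2 to 141 times their sampling variance per degree of freedom, so no library was taken as a copy. The code was tested on simulated data. Alternatives used other scalings, filters and thresholds, limma 3.58.1, DESeq2 1.42.0, a replicate block, a length and GC correction, and leaving out each library.

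Members and gene lists were chosen with earlier results of these data known. Values per library are given for called members whose groups separate and change at least 2-fold, the 2 lowest adjusted p-values and the highest WT level per kb of each family, the germ cell and HSF1 lists, and others where a comparison needs them. From the partner list, the 3 lowest adjusted p-values in each direction are named. Values of 1 listed gene are not reported here.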

Additional observations from a re-analysis of the deposited data

How the results depend on the processing

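Of the 33 called members, none changed sign under the 17 alternatives, and DESeq2 and limma-voom each kept all 33 calls. The members gave 21 higher and 18 lower with DESeq2, and 21 and 15 with limma-voom. All genes gave 4452 higher and 4548 lower with DESeq2, and 4273 and 4355 with limma-voom. Of the 25 uncalled members checked by name, DESeq2 added 4 (Bag4, Stip1, Hsf5 and Hsp90ab1) and limma-voom added 1 (Stip1). The further calls lie in members not checked by name. At an adjusted p of 0.01 the calls over all genes were 2611 higher and 2553 lower, over members 12 and 7, over the HSF1 list 1 and 3, over J-domain genes 4 and 0, and 4 chaperone partners and 0 germ cell members were lower. With library totals members gave 10 higher and 30 lower, the HSF1 list 0 and 8, J-domain genes 3 and 11, germ cell members 3 and 5, 8 partners were higher, and the members' median was -0.15. A filter at 5 CPM left 10279 genes to test, of which 2742 were lower and 3072 higher. Without that filter 4127 of 19776 genes were lower and 4185 higher. The length and GC correction gave 31 members and 6 HSF1 genes higher, 0 germ cell members lower and a median of 0.18. Together with the replicate block it gave 5 partners and 0 germ cell members lower and a median of 0.18.

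Deviations from the group means correlated at -0.02, -0.05 and -0.07 between same-numbered libraries, and so showed no pairing by replicate number. With 3 libraries a group this cannot settle whether libraries were paired, and the labels name no pairs. With the replicate block, all genes gave 3552 higher and 3666 lower, members 15 and 11, J-domain genes 4 higher and germ cell members 0 lower. Leaving out 1 library at a time gave 3064 to 4329 genes higher and 3025 to 4766 lower, 12 to 23 and 8 to 16 members, 1 to 3 and 4 to 7 HSF1 genes, 4 to 8 and 0 to 4 J-domain genes, 10 to 14 and 5 to 9 partners, and 4 to 8 and 0 to 3 germ cell members. The cause of these shifts was not tested.

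Some uncalled fold changes near 0 changed sign: with library totals Bag5 (-0.22), Dnaja4 (-0.10), Dnajb13 (-0.046), Dnajb7 (-0.07), Dnajb1 (-0.19), Hspa4l (-0.077) and Hspe1 (-0.16). With the length and GC correction, alone and with the block, they were Dnajb7 (-0.084 and -0.080), Dnajb4 (0.013 and 0.003), Hspa4 (0.014 and 0.002), Hspa2 (0.051 and 0.043) and Hspe1 (-0.14 and -0.17). Dnajb4 was 0.022 with upper-quartile scaling and 0.013 with the 5 CPM filter. Without 1 library, Bag5 spanned -0.063 to 0.094, Dnaja2 -0.213 to 0.023, Dnajb1 -0.06 to 0.13, Dnajb4 -0.14 to 0.11 and Hspe1 -0.15 to 0.22. With 3 libraries a group, genes of under 1 CPM such as Hspa1a and Hspa12b have standard errors of 0.76 and 0.85, so a change of 2-fold in them was not detectable at this depth.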

Other observations

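Chaperone partners outside the naming rule were read from the same edgeR fit. Of 45 tested, 13 were higher in SKO (28.9%), 9 were lower (20%) and 23 were not called, against 21.2% and 20.9% of all genes, and the median log2 fold change was 0.11. Ttc4, a TPR protein that binds HSP90 and HSP70, had 110.7, 90.7 and 59.2 CPM in SKO libraries and 339.9, 349 and 341.5 CPM in WT libraries. It fell by 1.98 ± 0.21 (edgeR adjusted p = 0.000114), with no overlap. Sgta, a TPR protein that sorts tail-anchored proteins, fell by 0.88 ± 0.18 (edgeR adjusted p = 0.00384), and Ahsa2, related to the activator of the HSP90 ATPase, fell by 0.84 ± 0.20 (edgeR adjusted p = 0.0081).

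Pdcl2, a germ cell phosducin-like protein that binds CCT, had 2866, 3267 and 3006 CPM in SKO libraries and 1524, 1314 and 1709 CPM in WT libraries. Pdcl2 rose (log2 1.01 ± 0.14, edgeR adjusted p = 0.000404), while 0 of the 10 CCT genes were called higher. Hscb, the J protein of mitochondrial iron-sulphur cluster assembly, rose with 1.09 ± 0.17 (edgeR adjusted p = 0.000888). Ubl4a, which works with Sgta in the tail-anchored pathway, rose with 1.28 ± 0.20 (edgeR adjusted p = 0.000888), so Sgta and Ubl4a moved in opposite directions.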
